A study of Saccharomyces cerevisiae with 4 samples.

Results

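The alcohol and aldehyde dehydrogenase genes of Saccharomyces cerevisiae described here are ADH1, ADH2, ADH3, ADH5, ALD2, ALD3, ALD4, ALD5 and ALD6. They were taken by gene symbol, and each had 1 probe set, none of them marked by its identifier as cross-hybridising, so 9 of 9 genes were measured among 5449 genes in all. Transcript levels came from 4 single-colour Affymetrix arrays, 2 of dis3E729K cells and 2 of wild-type cells. The mutant carried a missense allele of DIS3, the gene for the catalytic ribonuclease of the RNA exosome, which degrades and trims RNA from its 3′ end. Per the labels, BY4741, a common laboratory strain, was the parent of both genotypes, both had a URA3 marker next to DIS3, and they grew at 30 °C in drop-out medium to mid-log phase. The labels call the samples biological replicates. They do not describe separate clones, so the p-values measure the spread between these cultures. In the main fit that spread includes the difference between replicate numbers in mating type markers, given below.

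Alcohol and aldehyde dehydrogenases sit at the branch where yeast turns pyruvate into ethanol or acetate. Pyruvate decarboxylase makes acetaldehyde, which an alcohol dehydrogenase can reduce to ethanol, restoring NAD+ for glycolysis, or an aldehyde dehydrogenase can oxidise to acetate, yielding NADH or NADPH. Cells fermenting glucose rely on the cytosolic enzymes Adh1 and Ald6, whereas ADH2 and ALD4 are known for being repressed by glucose and used when ethanol is the carbon source.

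The arrays had near identical distributions, with lower quartiles of 9.22 to 9.27 and upper quartiles of 11.30 to 11.32 on the log2 scale over the 5449 genes, and 4 arrays limit the precision of every value. Marker genes of mating type split the arrays by replicate number and not by genotype. All 6 markers of MATa cells were higher on both replicate 1 arrays than on both replicate 2 arrays, and all 4 markers of MATalpha cells were higher on both replicate 2 arrays. The MATa markers averaged 11.63 and 6.24 (log2) in dis3E729K replicates 1 and 2, against 11.35 and 6.74 in wild type replicates 1 and 2, and the MATalpha markers 6.66 and 12.14, against 6.97 and 13.08. No marker of either list lay at or under the background level of 4.06 on any array. BY4741 is a MATa strain, so the replicate 2 arrays of both genotypes went against their strain label. Of the genes deleted in BY4741, LEU2 read 4.26 and 4.51 in the mutant, against 4.56 and 4.58 in wild type. HIS3 read 10.93 and 10.49, against 11.29 and 11.57, high on every array for a reason not tested. URA3, the marker next to DIS3, read 11.22 and 10.89, against 11.36 and 11.38. MET17 read 3.37 and 3.47 in the mutant, against 3.22 and 9.55 in wild type, the high value being that of replicate 2. The change of each of the 9 dehydrogenase genes is therefore also given for the replicate 1 arrays alone and the replicate 2 arrays alone. This split does not remove the MET17 difference, since the replicate 2 arrays of the 2 genotypes differed in MET17 as well as in DIS3 allele. What part of the changes between the replicate 2 arrays, or in any fit using them, goes with that difference was not tested. A further measure moved with genotype: the 17 control probe sets for ribosomal RNA each read higher in both mutant cultures, by a median of 0.42 log2 units. For 6 of 8 yeast control genes the 5′ signal relative to the 3′ signal was also higher in both mutant cultures, with a median difference of 0.20 over the 8. The part of these measures in the results was not tested.

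The comparison of dis3E729K with wild type asks which transcripts differ when the exosome's ribonuclease is altered. Of the 9 dehydrogenase genes, 2 rose, ADH5 and ALD4, each by more than 2 log2 units, as 1.65% of all genes did, and 0 fell. The call was made in limma's moderated test at a Benjamini-Hochberg adjusted p under 0.05 over all 5449 genes, of which 7.71% rose and 8.15% fell. At an unadjusted p under 0.05, 3 members were higher and 1 was lower, against 18.1% and 22.6% of all genes. Both mutant arrays lay above both wild-type arrays for 6 members, against 32.3% of all genes, and below them for 1 member, against 41.8%. The median change of the 9 was 0.55 log2 units, and that of all genes tested was -0.07. In these bulk cultures a change in the share of cells that express a gene and a change in RNA per cell cannot be told apart.

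**Figure D1:**
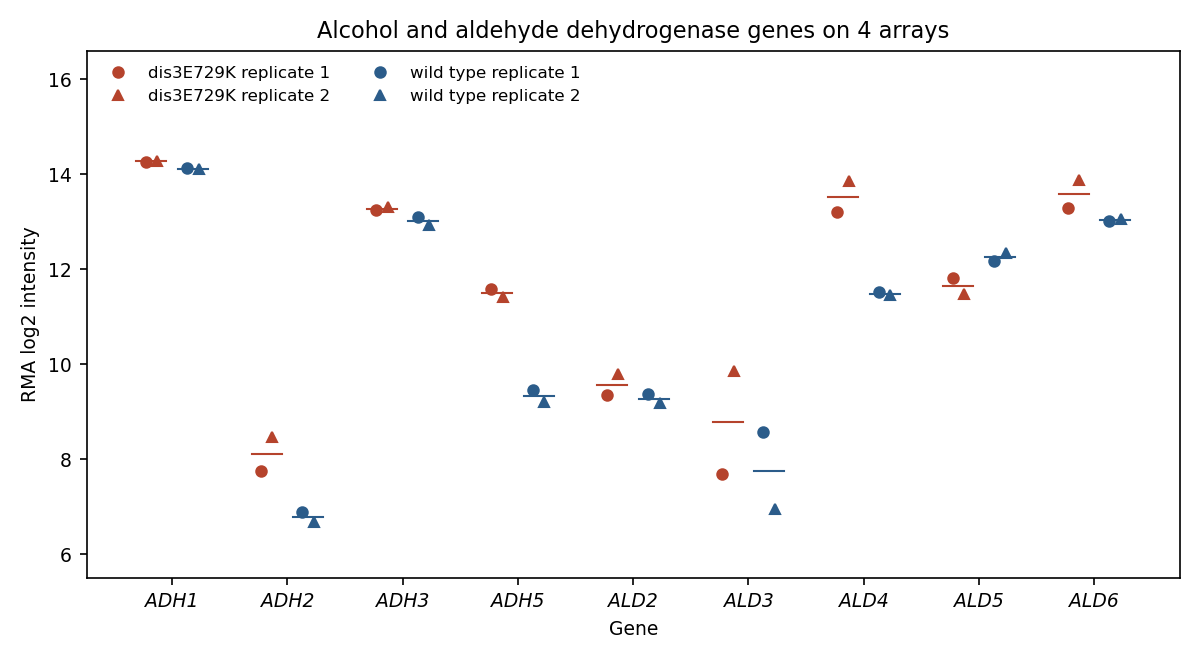
RMA log2 intensity (vertical axis) of the 9 genes (horizontal axis) on each array, with dis3E729K left of wild type, circles for replicate 1, triangles for replicate 2 and bars for the mean of 2. The groups stand clear of each other for ADH5 and ALD4, and the ALD3 values of the 2 genotypes cross; heights of different genes come from different probes and are not comparable.

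Among the alcohol dehydrogenases, ADH5 (YBR145W), a minor isoenzyme, changed most. It read 11.58 and 11.41 log2 units on the mutant arrays, against 9.45 and 9.20 on the wild-type arrays. Every mutant value lay far above every wild-type value. The mean was 11.49 ± 0.12 in the mutant and 9.32 ± 0.18 in wild type (SD, n = 2 each), a 4.50-fold difference. The log2 change was 2.17 ± 0.16 (SE), with a limma adjusted p of 0.0335, the smallest value that any gene reached. It was 2.13 for the replicate 1 arrays and 2.21 for those of replicate 2, so the rise was of nearly the same size in the a-like and the alpha-like cultures. Ordered by change from the largest rise down, ADH5 ranked 100 and ALD4 113 of 5449 genes. The call was lost without dis3E729K replicate 2 (limma adjusted p = 0.113), where no gene passed, and without wild type replicate 2 (limma adjusted p = 0.0523).

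ADH2 (YMR303C), which encodes the glucose-repressed enzyme that oxidises ethanol back to acetaldehyde, had 7.76 and 8.46 log2 units in dis3E729K, against 6.89 and 6.67 in wild type. Both mutant values exceeded both wild-type values, and the mutant replicate 2 array was the highest. The log2 change was 1.33 ± 0.28 (SE), a 2.51-fold difference, with a 95% interval of 0.56 to 2.09. The limma adjusted p was 0.0503, so ADH2 did not pass over all genes. The change was 0.86 for the replicate 1 arrays and 1.79 for those of replicate 2. The call sat on the threshold: over 10 alternatives that kept all 4 arrays, limma's adjusted p ranged from 0.0477, with each array centred on its median, to 0.209, with no variance moderation.

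ADH1 (YOL086C), the main enzyme that makes ethanol in fermenting cells, stood near the top of the arrays' range. It read 14.26 and 14.28 in dis3E729K, against 14.12 and 14.10 in wild type. The groups did not overlap, yet the log2 change was only 0.16 ± 0.12 (SE) and did not pass, with a limma adjusted p of 0.342. Its 95% interval ran from -0.15 to 0.48, and the change was 0.14 for the replicate 1 arrays and 0.18 for those of replicate 2. The highest value on any array was 14.60, and whether signal is compressed at such brightness was not tested. ADH1 and ADH2 are close paralogues, and hybridisation of one transcript to the other's probes was not tested.

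ADH3 (YMR083W), the mitochondrial isoenzyme, had 13.25 and 13.30 log2 units in the mutant, against 13.10 and 12.92 in wild type. All mutant values were above all wild-type values by a small margin. The log2 change of 0.26 ± 0.13 (SE) did not pass (limma adjusted p = 0.206), with a 95% interval of -0.10 to 0.62 and changes of 0.15 and 0.38 for the arrays of replicates 1 and 2. ADH3 was also the member whose pattern over the 4 arrays came closest to that of ADH1, at a root mean squared difference of 0.07 log2 units after each gene's mean was subtracted. The measure is not scaled, so genes that differ little between arrays, as ADH1 and ADH3 do, come out close whatever their pattern.

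Among the aldehyde dehydrogenases, ALD4 (YOR374W), the main mitochondrial enzyme, which oxidises acetaldehyde to acetate, rose. Its values were 13.20 and 13.86 in dis3E729K, against 11.53 and 11.45 in wild type. The wild-type arrays differed by less than 0.1 log2 units, and the mutant arrays were both far above them and farther from each other. The mean was 13.53 ± 0.47 in the mutant and 11.49 ± 0.06 in wild type (SD, n = 2 each), a 4.12-fold difference. The log2 change was 2.04 ± 0.26 (SE), with a limma adjusted p of 0.0340. Between the replicate 1 arrays it was 1.67, and between the replicate 2 arrays 2.41. The call was lost without dis3E729K replicate 2 (limma adjusted p = 0.113) and without wild type replicate 2 (limma adjusted p = 0.0743).

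ALD5 (YER073W), a second mitochondrial aldehyde dehydrogenase of lesser activity, was the only member with a change below 0. It had 11.81 and 11.48 log2 units in dis3E729K, against 12.18 and 12.33 in wild type. Both mutant arrays lay below both wild-type arrays. The log2 change was -0.61 ± 0.17 (SE), with -0.37 and -0.86 between the replicate 1 and replicate 2 arrays. It did not pass over all genes, at a limma adjusted p of 0.0763. The 95% interval of -1.08 to -0.14 shares no value with that of ALD4, which ran from 1.34 to 2.75. Both intervals are for single genes and are not adjusted over all genes, so this is a description only.

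ALD6 (YPL061W), the cytosolic enzyme that supplies acetate and NADPH during growth on glucose, read 13.28 and 13.89 in the mutant, against 13.02 and 13.05 in wild type. The wild-type values were nearly equal and both mutant values were above them, that of replicate 2 by more. The log2 change of 0.55 ± 0.24 (SE) did not pass, with a limma adjusted p of 0.167 and a 95% interval of -0.11 to 1.20. It was 0.26 for the replicate 1 arrays and 0.84 for those of replicate 2. Leaving out dis3E729K replicate 1 gave 0.85, with a limma adjusted p of 0.0514, and leaving out dis3E729K replicate 2 gave 0.24, with a limma adjusted p of 0.285.

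ALD2 and ALD3 are neighbouring genes in the R64 assembly and encode closely similar cytosolic enzymes, known for induction by stress and for a role in making beta-alanine, a precursor of coenzyme A. ALD3 (YMR169C) had 7.69 and 9.86 log2 units in dis3E729K, against 8.57 and 6.94 in wild type. The groups overlapped: replicate 2 was the higher mutant array, and replicate 1 was the higher wild-type array. The spread inside each genotype, with SDs of 1.53 in the mutant and 1.15 in wild type (n = 2 each), was as large as the log2 change of 1.02 ± 0.94 (SE), which did not pass (limma adjusted p = 0.452). The change was -0.88 for the replicate 1 arrays and 2.92 for those of replicate 2.

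ALD2 (YMR170C) read 9.35 and 9.79 in the mutant, against 9.37 and 9.18 in wild type, and its groups overlapped too. Its log2 change was 0.29 ± 0.20 (SE) and did not pass (limma adjusted p = 0.332), with -0.027 and 0.61 between the replicate 1 and replicate 2 arrays. ALD2 and ALD3 were the 2 members whose change differed in sign between the replicate numbers, as it did for 20.2% of all genes. Hybridisation between the transcripts of this pair was not tested.

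**Figure D2:**
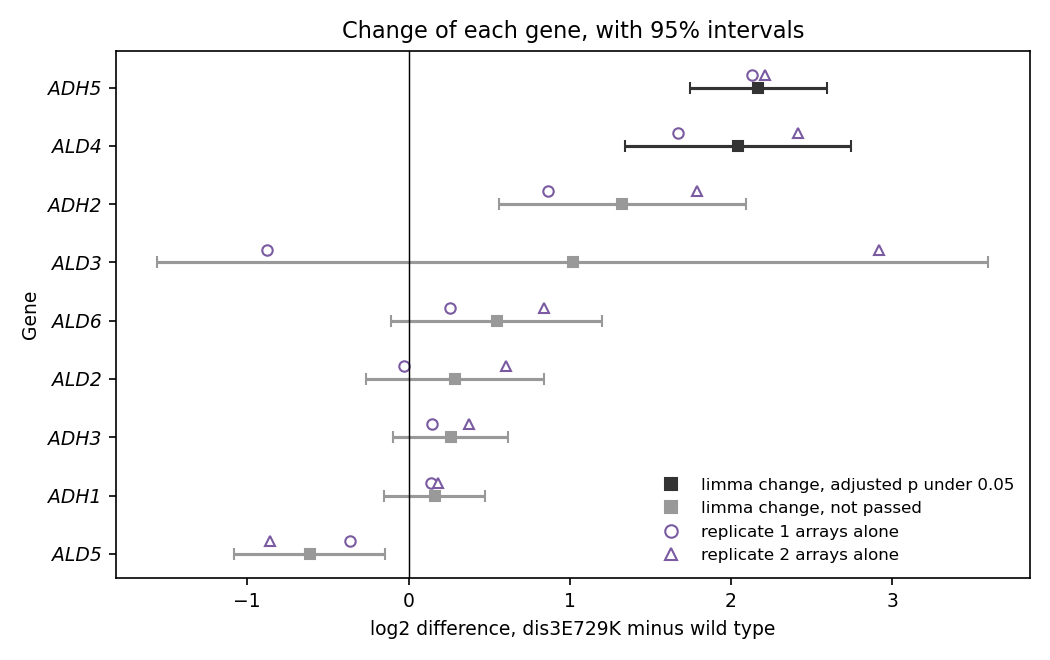
The log2 difference, dis3E729K minus wild type (horizontal axis), of each gene (vertical axis), as limma's estimate with its 95% interval (squares) and as the difference between the replicate 1 arrays (circles) or replicate 2 arrays (triangles) alone. ADH5 and ALD4 stand at 2.17 and 2.04, ALD5 at -0.61, and the points for ALD3 lie on opposite sides of 0.

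The members thus ranged in change from -0.61 for ALD5 to 2.17 for ADH5, where all genes tested ran from -3.36 to 5.13. The change was larger between the replicate 2 arrays than between the replicate 1 arrays, and of the same sign, for 7 of 9 members, against 61.6% of all genes. On the mutant arrays 7 of 9 members were higher in replicate 2, ADH5 and ALD5 being the others. The share of all genes with this order was not taken, so the count is a description only.

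**Figure D3:**
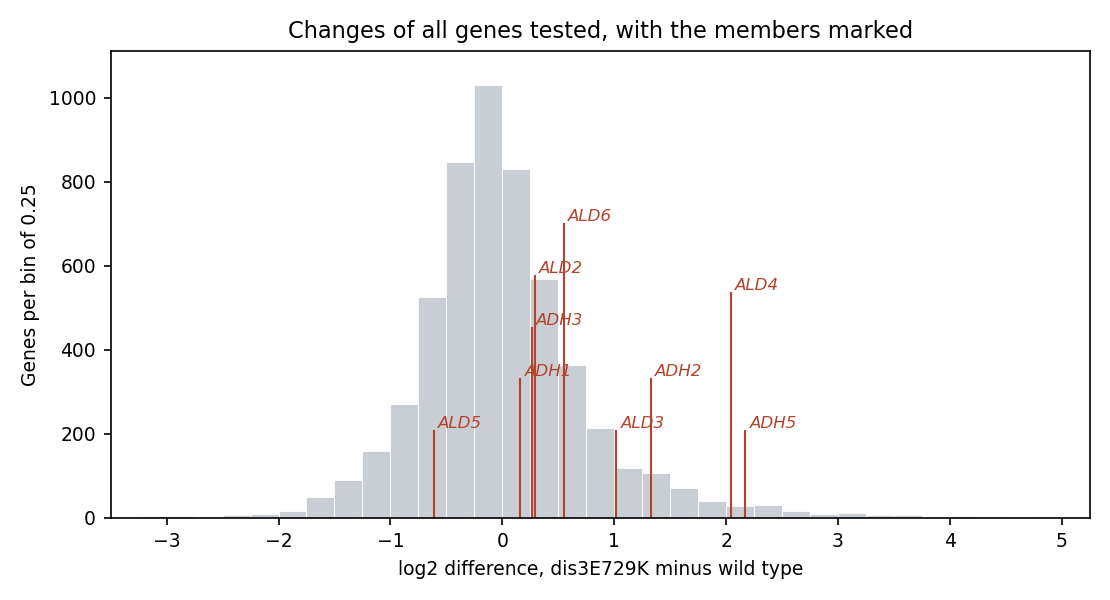
Number of genes (vertical axis) by log2 difference, dis3E729K minus wild type (horizontal axis), for all 5449 genes tested, with a line at the value of each member; line heights only keep the names apart. ADH5 and ALD4 lie in the right tail, and ADH1, ADH3 and ALD2 lie within the bulk of genes.

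To see whether isoenzyme genes moved together, the log2 difference between genes of a pair was taken within each array, and only its change between genotypes was read, since different probes cannot be compared in level. ADH2 minus ADH1 was -6.51 and -5.82 in dis3E729K, against -7.23 and -7.43 in wild type, a change of 1.16. ADH5 minus ADH1 changed by 2.01, with 1.99 and 2.03 between the arrays of replicates 1 and 2, the most even of the pairs. ADH3 minus ADH1 changed by only 0.10. Relative to ADH1, then, the values of ADH5 and ADH2 were higher on both mutant arrays and that of ADH3 was nearly level.

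Within the aldehyde dehydrogenases, ALD4 minus ALD6 was -0.08 and -0.03 in dis3E729K, against -1.50 and -1.60 in wild type. The change of 1.50 far exceeded the SDs of 0.04 in the mutant and 0.07 in wild type (n = 2 each). ALD5 minus ALD4 was -1.39 and -2.38 in the mutant, against 0.65 and 0.89 in wild type, a change of -2.65, so ALD5 was lower relative to ALD4 on both mutant arrays. ALD3 minus ALD2 had -1.65 and 0.07 in the mutant, against -0.80 and -2.23 in wild type, and its groups overlapped. For 5 of the 6 pairs the groups did not overlap. An exact permutation test, two-sided, gave p = 0.333 for each of these 5, the smallest p that 2 arrays against 2 allow. Among single genes, both mutant arrays lay above both wild-type arrays for 32.3% of all genes and below them for 41.8%. No such share was taken over pairs, and several pairs share ADH1 or ALD4, so the count of pairs is a description only. For ALD3 minus ALD2 the exact p was 0.667.

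**Figure D4:**
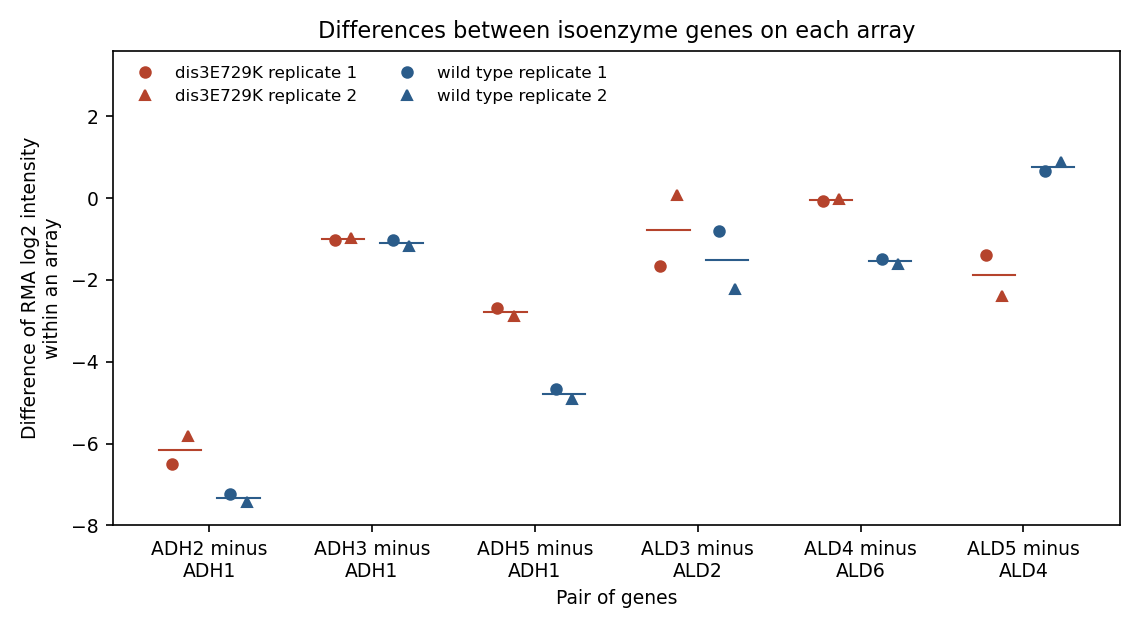
Difference of log2 intensity between the genes of a pair within an array (vertical axis) for 6 pairs (horizontal axis), dis3E729K left of wild type, circles for replicate 1, triangles for replicate 2 and bars for the mean of 2. The gap between genotypes is 1.50 for ALD4 minus ALD6 and -2.65 for ALD5 minus ALD4; the height of a pair itself depends on its probes.

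The genes most like the risen members were found by the root mean squared difference over the 4 arrays after each gene's mean was subtracted. For ADH5 they were HAP4 at 0.16 log2 units, SAM2, an S-adenosylmethionine synthetase, at 0.16 and PNC1, a nicotinamidase, at 0.17. HAP4, the activating subunit of a regulator of respiratory genes, read 12.10 and 12.20 in dis3E729K, against 10.27 and 10.15 in wild type. For ALD4 they were NDI1 at 0.07, YAK1, a protein kinase, at 0.09 and XKS1, a xylulokinase, at 0.09. NDI1, the internal NADH dehydrogenase of mitochondria, read 11.38 and 11.94 in dis3E729K, against 9.74 and 9.72 in wild type. Likeness over 4 arrays is a description only, and ADH5 and ALD4 differed from each other by 0.31 on the same measure.

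Genes around the dehydrogenases in metabolism were read from 7 lists holding 65 genes, 63 of them measured. The lists were chosen with earlier results of these data known. Of the 63 genes, 10 rose and 0 fell in limma's test, against 7.71% and 8.15% of all genes. Where unadjusted p below 0.05 was taken, 24 were higher and 1 was lower, against 18.1% and 22.6% of all genes. The same shares stand beside each list below. Of 4 genes for pyruvate decarboxylation, the step that makes acetaldehyde, 0 passed in either direction in limma's test, with a median change of -0.25 and 1 gene lower at an unadjusted p below 0.05. That gene was PDC2, a transcriptional activator of the decarboxylase genes, with a log2 change of -0.54 ± 0.14 (SE) and a limma adjusted p of 0.0670. PDC1, the main pyruvate decarboxylase, differed by 0.04 ± 0.12 and lay near the top of the range, like ADH1, at 14.30 and 14.27 in the mutant, against 14.24 and 14.24 in wild type.

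Of 3 genes that handle acetate downstream of the aldehyde dehydrogenases, ACH1 rose and 0 fell, with a median change of 2.08. ACH1, a mitochondrial enzyme that transfers coenzyme A to or from acetate, read 12.82 and 13.55 in dis3E729K, against 11.11 and 10.56 in wild type. Both mutant arrays lay well above both wild-type arrays, and the log2 change was 2.35 ± 0.34 (SE), with a limma adjusted p of 0.0357 and changes of 1.71 and 2.99 for the arrays of replicates 1 and 2. ACS1, the glucose-repressed acetyl-CoA synthetase, read 10.52 and 11.91 in the mutant, against 9.12 and 9.15 in wild type, and its change of 2.08 ± 0.49 did not pass (limma adjusted p = 0.0586). ACS2, the synthetase used during growth on glucose, differed by -0.16 ± 0.13 and did not pass.

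Of 19 measured genes for other alcohol and aldehyde dehydrogenases and reductases, 4 rose and 0 fell, with a median change of 0.30. GRE3, an aldose reductase, rose by 1.13 ± 0.20 (SE), HFD1, a dehydrogenase of fatty aldehydes, by 1.44 ± 0.27, GCY1, a glycerol dehydrogenase, by 1.49 ± 0.29, and BDH1, a butanediol dehydrogenase, by 1.45 ± 0.28. Their limma adjusted p values lay between 0.0419 for GRE3 and 0.0450 for BDH1. BDH2, the neighbour and paralogue of BDH1, had the larger log2 change of 2.59 ± 0.73 and did not pass (limma adjusted p = 0.0780), its values being 10.66 and 12.30 in the mutant, against 9.55 and 8.24 in wild type. Its change was 1.11 for the replicate 1 arrays and 4.06 for those of replicate 2. ADH4, the gene of an alcohol dehydrogenase of another protein family, had 10.63 and 10.82 in dis3E729K, against 10.74 and 12.44 in wild type. Wild type replicate 2 alone was high, and the change of -0.87 ± 0.60 did not pass.

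Of 14 genes for regulators, 4 rose and 0 fell, with a median change of 0.75. HAP4 rose by 1.94 ± 0.13 (SE), SNF1, the kinase needed to lift glucose repression, by 0.72 ± 0.13, HAA1, an activator of genes for weak acid resistance, by 0.56 ± 0.12, and MIG1, a repressor that acts in high glucose, by 0.93 ± 0.19. Transcripts for both the kinase and the repressor of the glucose response were thus among the 4. Adr1 and Cat8 are known activators of genes for ethanol and acetate use, ADH2 being a target of Adr1. ADR1 read 9.61 and 10.83 in dis3E729K, against 9.21 and 9.68 in wild type, with overlapping groups and a change of 0.77 ± 0.47 that did not pass. CAT8 read 8.45 and 10.34 in the mutant, against 7.05 and 7.34 in wild type, and its change of 2.20 ± 0.67 did not pass either (limma adjusted p = 0.0879). SIP4 had the largest change of the list, 2.61 ± 0.57, and did not pass (limma adjusted p = 0.0523). Its change was 2.31 for the replicate 1 arrays and 2.90 for those of replicate 2.

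Of 8 genes that supply NADPH, the cofactor that Ald6 also makes, 1 rose and 0 fell, with a median change of 0.18. Over all genes 7.71% rose and 8.15% fell, so 1 of 8 is no result about this list. ZWF1, glucose-6-phosphate dehydrogenase, rose by 0.92 ± 0.18 (SE), with 12.55 and 12.89 in dis3E729K, against 11.91 and 11.68 in wild type. In limma's test 0 of 6 glycerol genes passed, with 4 higher and 0 lower where unadjusted p below 0.05 was taken, and a median change of 0.89. GPD2, glycerol-3-phosphate dehydrogenase, had the lowest limma adjusted p of them, 0.0562, with a change of 0.77 ± 0.18, below the list's median. In limma's test 0 of 9 genes for beta-alanine, pantothenate and coenzyme A passed, with 2 higher and 0 lower where unadjusted p below 0.05 was taken, and a median of 0.13. FMS1, a polyamine oxidase that feeds beta-alanine synthesis, the pathway of ALD2 and ALD3, had a change of 0.87 ± 0.19 and a limma adjusted p of 0.0518.

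**Figure D5:**
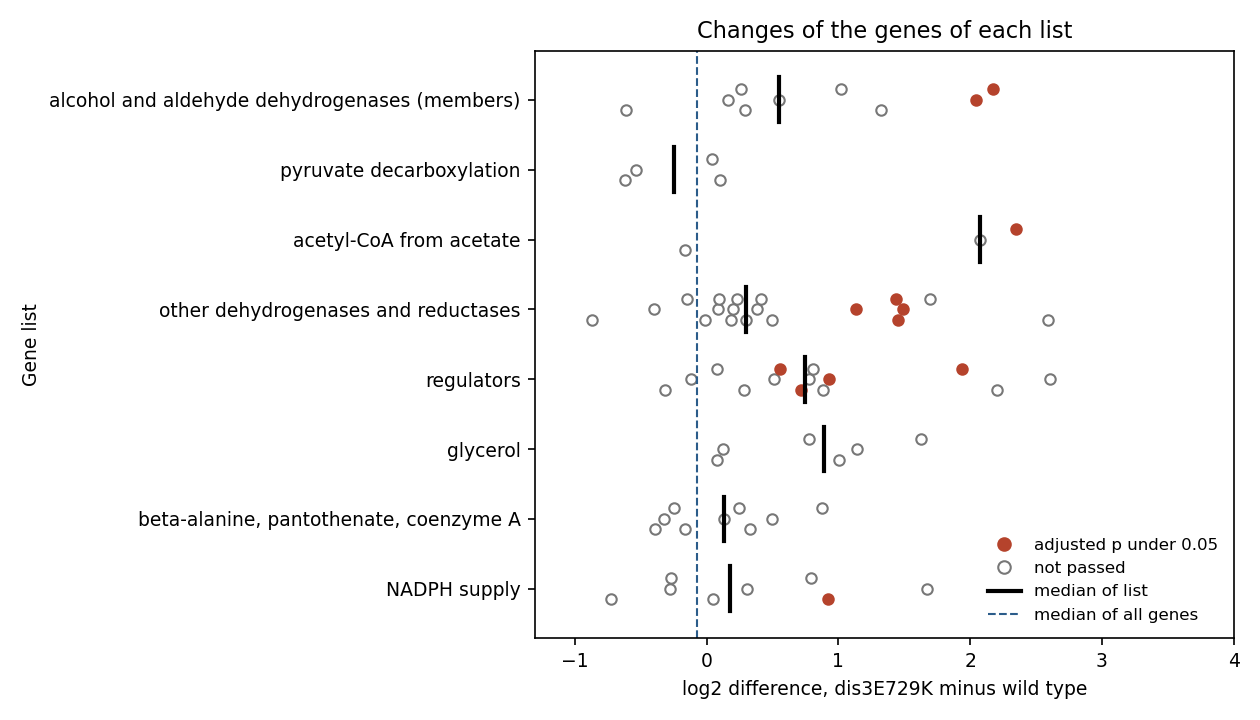
The log2 difference, dis3E729K minus wild type (horizontal axis), of every measured gene of the 9 dehydrogenases and of 7 pathway lists (vertical axis), with filled points for an adjusted p under 0.05 in limma's test, a black bar for each list's median and a dashed line for the median of all genes. Filled points stand right of 0 in every list that has any, and the median ranges from -0.25 for pyruvate decarboxylation to 2.08 for acetyl-CoA from acetate.

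The 10 list calls depended on single arrays, as the calls over all genes did. Without dis3E729K replicate 2 or without wild type replicate 2, 0 of the 10 passed in limma's test, with 10 and 9 of them higher where unadjusted p below 0.05 was taken. Without dis3E729K replicate 1, 3 of the 10 passed, and without wild type replicate 1, 2 did.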

How the data were processed

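Total RNA of 4 cultures was amplified, labelled with biotin and hybridised, per the labels' protocols. Per the submitters' processing notes, the authors used RMA, with Affymetrix Expression Console and the Transcriptome Analysis Console, and versions are not given in the sources used here. Each deposited value is a log2 intensity of a probe set. RMA quantile-normalizes the arrays together, so a global shift of mRNA cannot be seen. Of 10928 probe sets, 5498 matched exactly 1 S. cerevisiae gene through Entrez identifiers of the R64 RefSeq genes. The probe set with the highest mean was kept per gene, leaving 5449 genes. Probe sets of another species set the background level, the 95th percentile of their means, 4.06.

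R 4.3.3 and its package limma 3.58.1 compared the genotypes (lmFit, eBayes, no filter), with Benjamini-Hochberg adjustment over all genes and a threshold of 0.05. Intervals of 95% used 4.18 degrees of freedom and were not adjusted for the number of genes. Python 3.11.15 made tables and plots. The fit was also run on simulated data with independent noise on each array. Those data held no difference between replicate numbers, so they cannot show how firm the calls in the real data are. No sequence or coordinate is given, since no sequence was used here.

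Members and lists were chosen with earlier results of these data known. All members are named. From each list up to 4 passing genes with the largest absolute moderated statistic are named, or the leading gene where none passed, and for each passing member the 3 genes nearest in pattern. PDC1, ACS1, ACS2, BDH2, ADH4, ADR1, CAT8 and SIP4 were named after their values were seen.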

Additional observations from a re-analysis of the deposited data

Results flagged for a closer look

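For ALD2 and for ALD3 the sign of the change differed between the replicate 1 arrays and the replicate 2 arrays, which mating type markers set apart. For ALD3 the log2 change, dis3E729K minus wild type, was -0.88 for the replicate 1 arrays and 2.92 for those of replicate 2. For ALD2 it was -0.027 for the replicate 1 arrays, close to 0, and 0.61 for those of replicate 2. Each value rests on 1 array per genotype, and the difference between replicate numbers was not tested.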

How the results depend on the processing

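Over all genes, 420 rose and 444 fell. The counts were 883 and 1069 at an adjusted p under 0.1, 199 and 144 with the replicate block, 0 and 2 with no variance moderation (limma's linear model, 631 higher and 777 lower where unadjusted p below 0.05 was taken), and 240 fell by at least 1 log2 unit. Leaving out 1 array gave 0 to 316 rises and 0 to 351 falls, with 164 and 85 without wild type replicate 1, 9 and 2 without wild type replicate 2, and 0 of either without dis3E729K replicate 2 in limma's test (694 higher and 868 lower where unadjusted p below 0.05 was taken). Of the members, 2 rose; 0 rose with no variance moderation, where limma's unmoderated adjusted p was 0.170 for ADH5 at 2.17 and 0.179 for ALD4 at 2.04, and 1, ALD5, fell at an adjusted p under 0.1. Leaving out 1 array gave 0 to 3 member rises, with 0 without dis3E729K replicate 2 or wild type replicate 2 (limma, 3 higher at an unadjusted p below 0.05 in each), with changes of 2.05 to 2.29 for ADH5, 1.71 to 2.37 for ALD4, 0.97 to 1.68 for ADH2, 0.24 to 0.85 for ALD6 and -0.064 to 2.10 for ALD3, whose sign turned without dis3E729K replicate 2; the change of ALD3 minus ALD2 ran from -0.13 to 1.59 and turned there too. ADH2 passed with its change of 1.33 under an intensity trend (limma adjusted p = 0.0493), with all probe sets except controls (limma adjusted p = 0.0481) and without cross-hybridising probe sets (limma adjusted p = 0.0490), at 1.34 with median centring (limma adjusted p = 0.0477) and at 1.68 without dis3E729K replicate 1 (limma adjusted p = 0.0444). The replicate numbers share only a number in the labels (correlation of deviations 0.08); with the replicate block ADH5 and ALD4 passed (limma adjusted p = 0.0257 and 0.0377), and of the 10 list genes 3 did, as did 0 with no variance moderation (limma's linear model, 6 higher at an unadjusted p below 0.05). Added after the data were seen, the replicate 1 and replicate 2 arrays alone gave 0.14 and 0.18 for ADH1, 0.86 and 1.79 for ADH2, 0.15 and 0.38 for ADH3, -0.027 and 0.61 for ALD2, -0.88 and 2.92 for ALD3, 1.67 and 2.41 for ALD4, and -0.37 and -0.86 for ALD5. The cause of these differences was not tested. Across 144 alternative values of member changes, 118 kept both direction and side of the threshold or moved by less than 1 SD. Many of the alternatives altered only the fit or the genes tested, which left each member's change as it was, so its direction could not turn. A member that did not pass kept its side by not passing again, so the total is no measure of how firm the calls were. All 9 members lay above the background level of 4.06 on 4 of 4 arrays, but so did every mating type marker on arrays of the other type. Whether low signal limited ADH2 or ALD3, at 6.67 and 6.94 in wild type replicate 2, was not tested.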
